A study of Mus musculus with 6 samples.

Results

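The 32 genes described here encode the enzymes of glycolysis, the regulators of phosphofructokinase, the lactate dehydrogenases, the 4 pyruvate dehydrogenase (PDH) kinases and a few enzymes at the edges of the pathway. They were chosen by gene symbol, and all 32 are among the 18493 genes of the deposited table. RNA was sequenced from CD4+CD25+YFP+ regulatory T (Treg) cells sorted from spleen and lymph node of untreated female C57BL/6 mice aged 7 weeks. The WT group and the cKO group had 3 libraries each (WT1 to WT3 and cKO1 to cKO3). All mice carried Foxp3cre/+, and the cKO mice were in addition TKTfl/fl, so that Tkt, the gene of transketolase, is a target of Cre in cells that use the Foxp3 allele with Cre. Foxp3 lies on the X chromosome, so each female is a mosaic, which the design calls chimeric, and the YFP sort takes the cells with the active Cre allele. Pooling of animals in a library is not stated in the labels, and the p-values speak only of the spread over 6 libraries.

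Glycolysis splits glucose into pyruvate in the cytosol. Many of its steps have several isozymes, encoded by separate genes, that differ in regulation and in the tissues that use them. Pyruvate is either reduced to lactate by lactate dehydrogenase or oxidized in mitochondria by the PDH complex, which the PDH kinases inhibit by phosphorylation. Transketolase belongs to the non-oxidative pentose phosphate branch, and its products fructose 6-phosphate and glyceraldehyde 3-phosphate are intermediates of glycolysis. The comparison of cKO with WT cells asks whether the mRNA of the glycolytic enzymes differs when Tkt is targeted.

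The libraries held 17180577 to 18215168 estimated reads. Levels between groups are given in CPM (reads scaled to library size), and levels between genes in FPKM (scaled to library size and transcript length). Tkt stood at 126, 97.1 and 121 CPM in WT1 to WT3 and at 52.5, 44.8 and 31.9 CPM in cKO1 to cKO3 (log2 fold change -1.41 ± 0.19 SE). The groups did not overlap, but its adjusted p in edgeR's quasi-likelihood test was 0.0516, so Tkt missed the threshold of 0.05. WT2 and cKO1 were highest on the first principal component (25.4 and 33.2), which held 36.1% of the variance, with cKO2 between them and the rest (8.11, against -25.9 to -18.4), and both had high Tnfaip3, an inhibitor of NF-kB signalling (4898 and 4612 CPM against 1152 to 2332 CPM). The Treg markers were present in all libraries (Foxp3 598 ± 123 CPM in WT against 620 ± 58.8 CPM in cKO, SD, n = 3; Il2rb 1227 ± 75.3 and 1232 ± 36.0 CPM). Of the 8, 4 had a log2 fold change above 0 and 4 below, with 0 called. Ikzf2 (Helios) was lower in every cKO library (-0.21 ± 0.09 SE; adjusted p = 0.642, edgeR), and Ctla4 had -0.57 ± 0.37 (adjusted p = 0.826), with 1727 CPM in WT2 against 492 to 977 CPM in the others. In bulk RNA, fewer cells of a type and less RNA per cell cannot be told apart.

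No gene of the 32 passed the test. Of the 31 that could be tested, edgeR called 0 at an adjusted p under 0.05, where it called 0.210% of all 12887 genes tested (27 genes, 0.00776% higher and 0.202% lower in cKO cells). DESeq2 and limma-voom also called 0 of the 31, beside 179 and 19 genes over the whole table. An unadjusted p under 0.05 was found for 2 of 31 (6.45%), Pdk1 and Eno1, beside 7.69% of all genes tested. In 3 genes, Pdk1, Eno1 and Pfkl, every cKO library lay above every WT library, and in 0 did every cKO library lie below. These 3 genes are 9.68% of the 31. Over all genes tested, the groups did not overlap in 14.2%, with 6.06% higher and 8.12% lower in cKO cells, so the share was below the background for either direction and above it for higher values alone.

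The differences were small as well as uncalled. The log2 fold change was above 0 for 17 genes (54.8%, beside 51.4% of all genes tested) and below 0 for 14, and its median was 0.007, beside 0.004 over all genes tested. The median size without regard to sign was 0.10, against 0.105 over all genes, and 29 of the 31 were under 0.3. The 31 are more abundant than the background (median 39.3 against 25.6 CPM). Among genes of at least 100 CPM, the median size was 0.081 over 12 of the 31, against 0.072 over all 2399. The 95% interval of the log2 fold change lay within 0.5 of 0 for 24 genes and within 1 of 0 for 29. The exceptions to the wider bound were Hk3 (-1.55 to 0.61) and Aldoc (-1.06 to 0.24), both with few reads. Summed over all 32 genes, the level was 4435, 4104 and 4346 CPM in the WT libraries and 4106, 4444 and 4178 CPM in the cKO libraries (4295 ± 171 and 4243 ± 178 CPM, SD, n = 3). The groups overlapped fully, with the lowest sums in WT2 and cKO1.

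**Figure D1:**
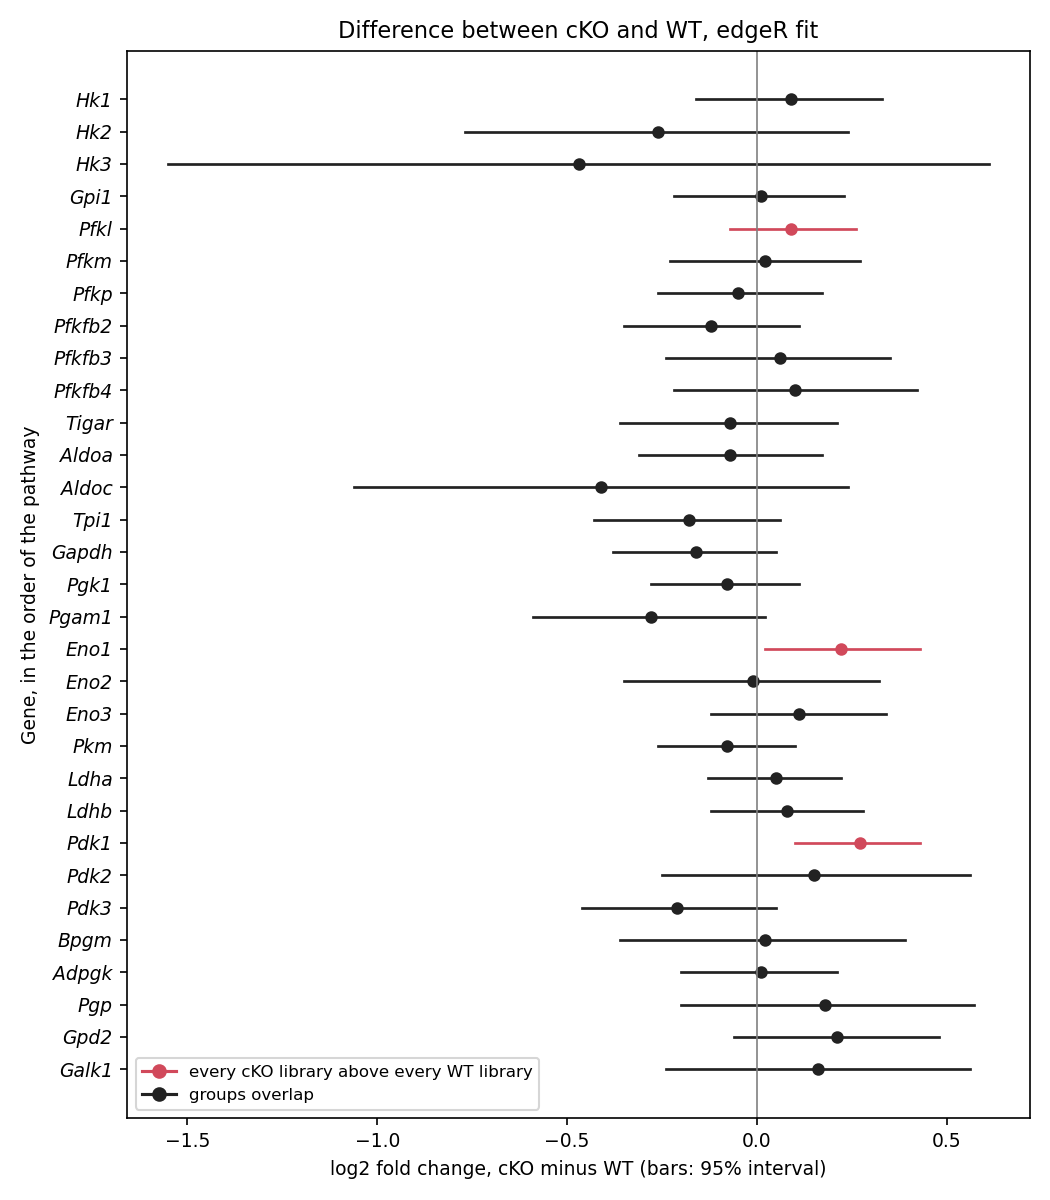
The log2 fold change of cKO against WT (horizontal axis; points) with its 95% interval (bars) from edgeR is plotted for the 31 tested genes, in the order of the pathway. Pdk1 (0.27), Eno1 (0.22) and Pfkl (0.09), in red, are the genes in which every cKO library lay above every WT library, and only the intervals of Pdk1 and Eno1 leave out 0.

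The promoters of these 3 genes are shown because their libraries separated by group. Each line gives the 250 bases before a RefSeq transcription start in GRCm38.p6, read 5′ to 3′ on the gene's strand, and capitals mark GCGTG, a core of hypoxia response elements. A match on the opposite strand reads CACGC. The windows are chr2:71872974-71873223 (plus strand) for Pdk1, chr4:150236947-150237196 (plus) for Eno1 and chr10:78009808-78010057 (minus) for Pfkl.

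Pdk1: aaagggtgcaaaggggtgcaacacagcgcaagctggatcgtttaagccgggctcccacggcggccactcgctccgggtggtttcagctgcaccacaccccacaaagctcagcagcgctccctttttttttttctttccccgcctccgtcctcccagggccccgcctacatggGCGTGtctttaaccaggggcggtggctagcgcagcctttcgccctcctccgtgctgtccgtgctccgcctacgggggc
Eno1: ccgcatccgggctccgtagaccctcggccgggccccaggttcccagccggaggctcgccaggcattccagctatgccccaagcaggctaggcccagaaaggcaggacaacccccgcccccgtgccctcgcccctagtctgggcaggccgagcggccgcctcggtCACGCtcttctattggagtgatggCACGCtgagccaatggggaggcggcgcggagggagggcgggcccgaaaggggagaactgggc
Pfkl: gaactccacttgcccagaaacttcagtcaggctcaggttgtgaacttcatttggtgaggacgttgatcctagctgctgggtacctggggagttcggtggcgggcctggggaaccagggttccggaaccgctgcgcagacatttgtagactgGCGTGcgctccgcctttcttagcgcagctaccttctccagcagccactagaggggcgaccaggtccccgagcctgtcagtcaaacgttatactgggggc

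The printed Pdk1 window holds 1 match, which begins 78 bases before the start. The printed Eno1 window holds 2 (86 and 62 bases before) and the Pfkl window 1 (99 bases before). Pdk1 and Eno1 have other windows too. The one at chr2:71874654-71874903 for Pdk1 holds 0 matches. Those of Eno1 at chr4:150236458-150236707 and chr4:150236974-150237223 hold 1 and 2. The latter overlaps the printed Eno1 window, and its 2 matches are the same 2. Each printed window is the first by position after which the bases occur in the gene's longest protein-coding transcript. GCGTG on either strand occurs in 28.2% of the 32851 mouse promoter windows of this length and in 23 of the 49 windows of the 32 genes (46.9%). The related core ACGTG occurs in 16.6% of all windows and in 19 of the 49 (38.8%), but in none of the 3 printed here. The E-box CACGTG, which contains ACGTG and is bound by Myc among others, occurs in 6.0% of all windows and in 6 of the 49 (12.2%). The windows of the 32 genes are also richer in G and C, with a median of 59.2% against 52.4%, and several of them belong to 1 gene. Some windows of a gene overlap, so that a match can be counted more than once. Counted by gene, 18 of the 32 have GCGTG in at least 1 window, 15 ACGTG and 6 CACGTG. A match describes letters and not a bound site.

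The most abundant genes came from both parts of the pathway. Gapdh, the dehydrogenase that makes 1,3-bisphosphoglycerate, had the highest level, at 626 ± 31.3 FPKM in WT against 559 ± 56.8 FPKM in cKO cells (SD, n = 3). Pkm (pyruvate kinase) followed at 278 ± 12.4 and 261 ± 19.7 FPKM. Eno1, Ldha, Aldoa and Gpi1 lay between 180 and 229 FPKM in WT cells, and the neighbours Ldha and Aldoa (202 ± 2.79 and 201 ± 25.0 FPKM) did not differ beyond their spread. Hk3 was the lowest of the tested genes, at 0.263 ± 0.0907 FPKM in WT against 0.160 ± 0.0854 FPKM in cKO cells.

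**Figure D2:**
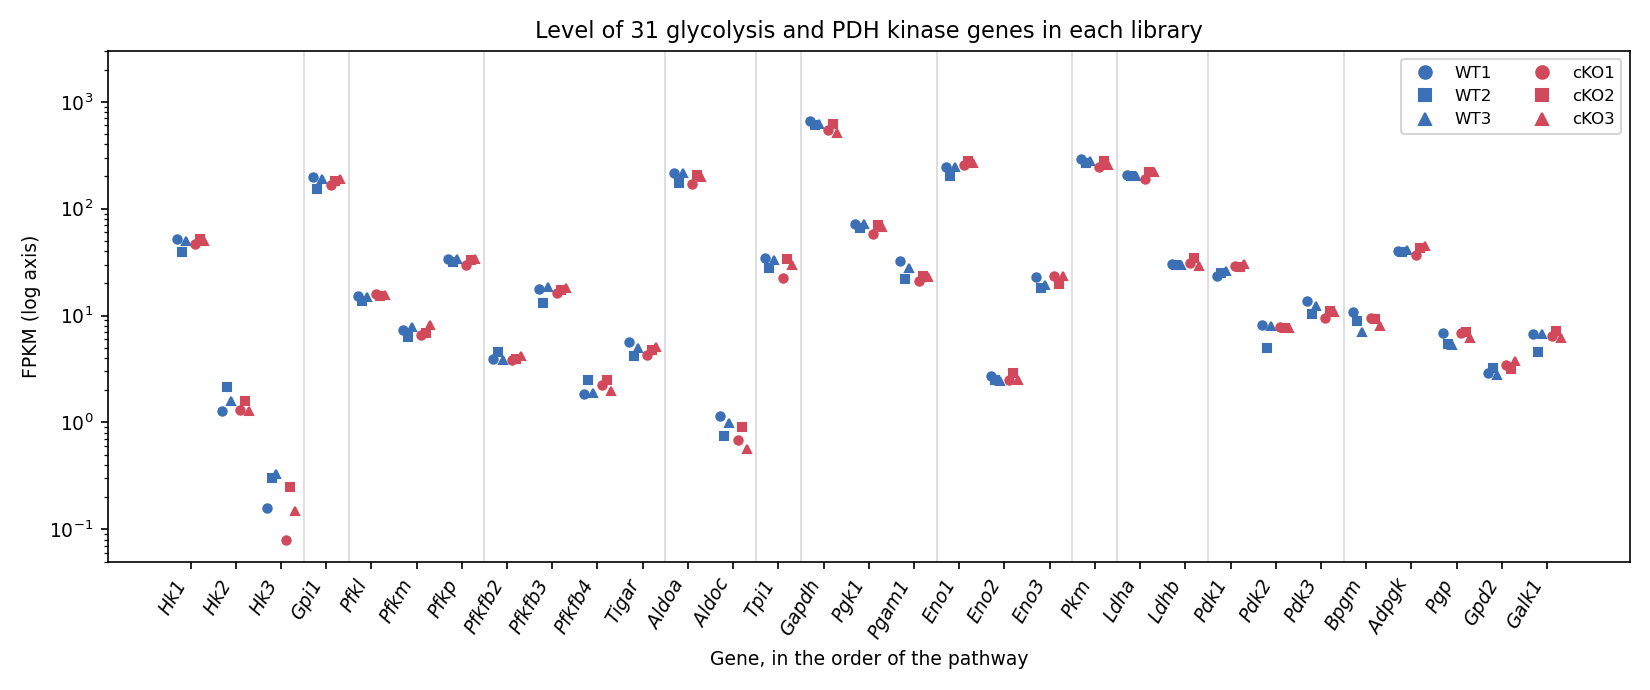
The level of the 31 tested genes is plotted in FPKM on a log axis, with a point for each of the 3 WT libraries (blue) and 3 cKO libraries (red) and grey lines between the steps of the pathway. Gapdh stands highest (626 FPKM on average in WT) and Hk3 lowest (0.263 FPKM), and the blue and red points of most genes lie at like heights.

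The hexokinases, which trap glucose as glucose 6-phosphate, were almost wholly Hk1. Hk1 made up 97.3, 94.1 and 96.3% of the hexokinase FPKM in the WT libraries and 97.2, 96.6 and 97.2% in the cKO libraries. The means differed by 1.09 percentage points, and by 0.19 without WT2. Its level was 199, 154 and 189 CPM in WT against 188, 197 and 190 CPM in cKO cells (log2 fold change 0.09 ± 0.11 SE; adjusted p = 0.940, edgeR). WT2 was the lowest of the 6 libraries, and the groups overlapped. Hk2, the inducible isozyme of activated and growing cells, had 6.63, 11.1 and 8.37 CPM in WT against 6.70, 8.43 and 6.65 CPM in cKO cells (-0.26 ± 0.22 SE; adjusted p = 0.891). WT2 was the highest for Hk2, so that its ratio of Hk2 to Hk1 in FPKM was 0.0551, against 0.0244 to 0.0322 in the other 5 libraries. Hk3 had only 6.4 to 18 estimated reads per library. Without WT2 and cKO1, the log2 fold change was -0.001 for Hk1 and 0.005 for Hk2.

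Phosphoglucose isomerase, encoded by Gpi1, makes fructose 6-phosphate, which transketolase also produces. Gpi1 had 561, 458 and 541 CPM in WT against 500, 525 and 541 CPM in cKO cells. WT2 was again the lowest library and the group means were nearly equal (520 ± 54.8 and 522 ± 20.7 CPM, SD, n = 3), with a log2 fold change of 0.01 ± 0.10 (SE) and a 95% interval of -0.22 to 0.23.

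Phosphofructokinase commits sugar to glycolysis and is built from 3 kinds of subunit. The platelet-type subunit Pfkp was the main one, with 60.4 ± 0.842% of the subunit FPKM in WT against 58.5 ± 1.45% in cKO cells (SD, n = 3). Its level was 139, 162 and 143 CPM in WT against 156, 137 and 137 CPM in cKO cells. WT2 and cKO1 were the highest libraries in CPM, while in FPKM they were the lowest (31.8 and 29.8 against 33.2 to 34.0 FPKM). The transcript length that the authors' FPKM imply for Pfkp was 4962 and 5078 bases in WT2 and cKO1 and 4151 to 4272 bases in the others. The 3′ end of Pfkp also overlaps its neighbour Pitrm1, with which it shares 748 transcript bases, so reads there could be split.

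The liver-type subunit Pfkl (Entrez 18641, chromosome 10, 77986947 to 78009807, mm10), whose promoter is printed above, had 47.8, 44.9 and 46.8 CPM in WT against 51.7, 48.5 and 48.8 CPM in cKO cells. Every cKO library was above every WT library, but by little: the means were 46.5 ± 1.45 and 49.6 ± 1.76 CPM (SD, n = 3), and the log2 fold change of 0.09 ± 0.07 (SE) had an adjusted p of 0.870 in edgeR's test. Its share of the subunits was 27.1, 26.4 and 26.3% in WT and 30.2, 27.7 and 27.3% in cKO cells, also without overlap. An exact permutation test of such a share cannot give a p below 0.1 with groups of 3. The muscle-type subunit Pfkm had 20.5 ± 1.74 and 20.8 ± 1.90 CPM.

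The PFKFB enzymes make and degrade fructose 2,6-bisphosphate, the strongest activator of phosphofructokinase, and Tigar degrades it. Pfkfb3, the isozyme with the highest kinase over phosphatase activity, led the family with 72.3 ± 6.34% of its FPKM in WT against 73.5 ± 1.21% in cKO cells (SD, n = 3). It had 77.1, 57.9 and 80.1 CPM in WT against 72.1, 74.2 and 77.6 CPM in cKO cells. WT2 stood below the other 5 libraries, and its share of Pfkfb3 was likewise the lowest, at 65.0%. The difference in the mean share was 1.22 percentage points, and -2.43 without WT2. Pfkfb2 had 24.2, 29.2 and 24.6 CPM in WT against 24.9, 23.1 and 24.0 CPM in cKO cells. WT2 was the highest library for Pfkfb2, and the other 5 differed little. Pfkfb4 had 7.73, 9.70 and 9.38 CPM in WT against 9.81, 9.99 and 8.89 CPM in cKO cells, with overlapping groups. Tigar had 18.1 ± 2.37 and 17.2 ± 1.17 CPM (SD, n = 3). The log2 fold changes of these 4 genes ran from -0.12 to 0.10, with adjusted p-values of 0.897 and above in edgeR's test.

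Aldolase cleaves fructose 1,6-bisphosphate into the triose phosphates, and triose phosphate isomerase interconverts them. Aldolase was almost only Aldoa, with 99.5% of the family's FPKM in WT against 99.6% in cKO cells. Aldoa had 320, 265 and 319 CPM in WT against 264, 307 and 290 CPM in cKO cells (log2 fold change -0.07 ± 0.10 SE). WT2 and cKO1 had the lowest values, almost the same in both. Aldoc was near 2 CPM (2.58 ± 0.512 and 1.94 ± 0.448 CPM, SD, n = 3). Tpi1 had 125, 142 and 127 CPM in WT against 103, 130 and 113 CPM in cKO cells (-0.18 ± 0.10 SE; adjusted p = 0.785, edgeR). For Tpi1 WT2 was the highest library in CPM but the lowest of the WT libraries in FPKM (27.7, against 34.2 in WT1 and 32.9 in WT3). The length implied by the FPKM was 4979 and 4489 bases in WT2 and cKO1, against 3721 to 3881 bases in the others.

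Gapdh, Pgk1 and Pgam1 catalyse the next steps, each with 1 main gene. Gapdh had 878, 844 and 828 CPM in WT against 749, 843 and 689 CPM in cKO cells. Its cKO mean was lower (850 ± 25.5 and 760 ± 77.3 CPM, SD, n = 3), but cKO2 lay among the WT libraries, and the log2 fold change of -0.16 ± 0.09 (SE) had an adjusted p of 0.789. Pgk1, the first enzyme of the pathway to make ATP, had 126 ± 2.60 and 119 ± 10.1 CPM. Pgam1, which moves the phosphate of 3-phosphoglycerate, had 58.6, 41.0 and 50.4 CPM in WT against 39.3, 42.9 and 41.1 CPM in cKO cells. WT2 sat among the cKO libraries, below WT1 and WT3, and the log2 fold change was -0.28 ± 0.13 (SE), with an adjusted p of 0.692 in edgeR's test.

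Enolase, which makes phosphoenolpyruvate, was mainly Eno1, with 91.0 ± 0.718% of the family's FPKM in WT against 91.5 ± 0.815% in cKO cells (SD, n = 3). Eno1 (Entrez 13806, chromosome 4, 150236708 to 150248879) had 422, 364 and 430 CPM in WT against 469, 488 and 464 CPM in cKO cells. All 3 cKO libraries lay above all 3 WT libraries, with WT2 the lowest. The means were 405 ± 36.0 and 474 ± 13.2 CPM (SD, n = 3), and the log2 fold change of 0.22 ± 0.09 (SE; 95% interval 0.02 to 0.43) had an unadjusted p of 0.0353 and an adjusted p of 0.586 in edgeR's test, with 0.364 to 0.955 over the alternatives. Eno2 and Eno3, the neuronal and muscle isozymes, had log2 fold changes of -0.01 and 0.11 and made up 1.02% and 8.01% of the family in WT cells.

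The Eno1 difference was smaller when the reads of a copy of the gene were added to it. Eno1b, an intronless gene whose transcript is 99.5% identical to that of Eno1 over 1736 bases, had 48.7, 46.3 and 48.9 CPM in WT against 13.4, 10.1 and 44.6 CPM in cKO cells (log2 fold change -1.08 ± 0.50 SE; adjusted p = 0.699, edgeR). The cKO1 and cKO2 libraries were low, and cKO3 was close to the WT libraries. Reads of so similar a pair cannot be placed with certainty, so the 2 genes were also added up, an alternative chosen after seeing the data. The sum was 471, 410 and 479 CPM in WT against 482, 499 and 508 CPM in cKO cells. The groups still did not overlap, but the log2 fold change of the sum was 0.13 (adjusted p = 0.828, edgeR), against 0.22 for Eno1 alone.

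**Figure D3:**
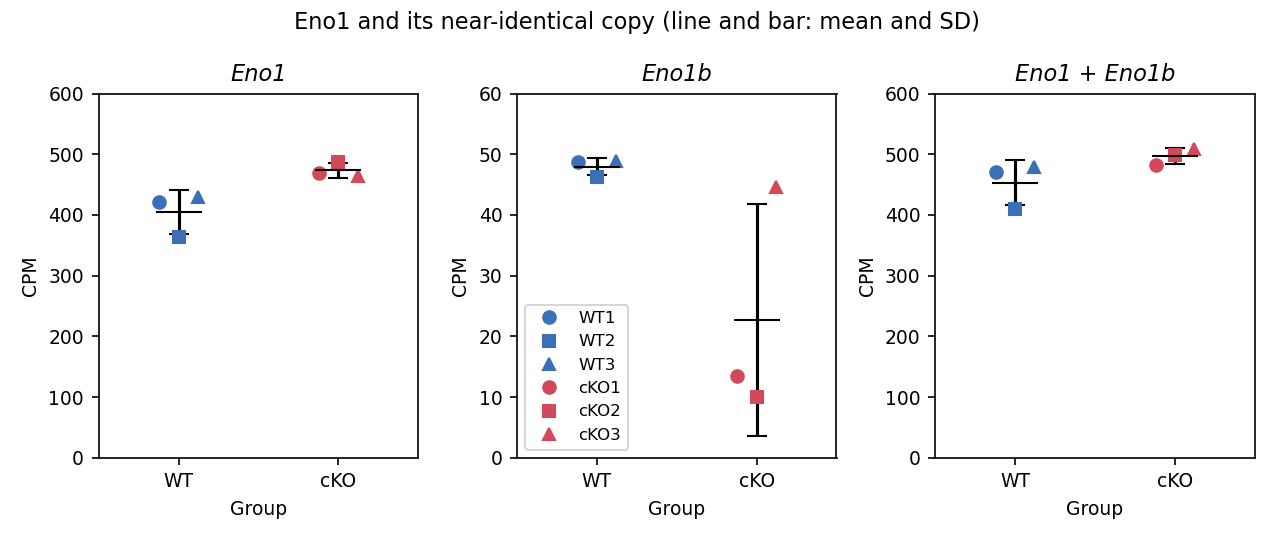
The level in CPM of Eno1, of its near-identical copy Eno1b (on a smaller scale) and of their sum is plotted for each library, with the mean (line) and SD (bar) of the 3 WT and 3 cKO libraries. Eno1 is higher in all cKO libraries, Eno1b is low in cKO1 and cKO2 (13.4 and 10.1 CPM) and not in cKO3 (44.6 CPM), and the groups lie closer together in the sum.

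Pyruvate kinase and lactate dehydrogenase end the pathway. Pkm had 663, 630 and 643 CPM in WT against 585, 655 and 592 CPM in cKO cells (log2 fold change -0.08 ± 0.08 SE; adjusted p = 0.915, edgeR), with cKO2 inside the WT range. The table has 1 value per gene, so the M1 and M2 forms of pyruvate kinase, which are spliced from Pkm, were not analysed here. Ldha, the subunit that favours lactate formation, had 326, 331 and 325 CPM in WT against 314, 352 and 347 CPM in cKO cells. Its cKO libraries lay on both sides of the WT libraries. Ldha made up 87.2 ± 0.128% of the lactate dehydrogenase FPKM in WT against 86.8 ± 1.24% in cKO cells (SD, n = 3), and Ldhb had 38.2 ± 0.939 and 40.4 ± 3.38 CPM. The log2 fold change was 0.05 ± 0.07 (SE) for Ldha and 0.08 ± 0.08 for Ldhb.

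The PDH kinases held the smallest p among the 32 genes. Pdk1 (Entrez 228026, chromosome 2, 71873215 to 71903858), the isozyme known as a target of the hypoxia factor HIF-1, had 95, 102 and 106 CPM in WT against 122, 120 and 123 CPM in cKO cells. The cKO libraries lay close together and above every WT library. The means were 101 ± 5.46 and 122 ± 1.81 CPM (SD, n = 3), and the log2 fold change of 0.27 ± 0.07 (SE; 95% interval 0.10 to 0.43) had an unadjusted p of 0.00612 and an adjusted p of 0.304 in edgeR's test. Over the 18 alternatives its log2 fold change ran from 0.23 to 0.31 and its adjusted p from 0.0936 to 0.862. Pdk1 has no near-identical copy among the annotated mouse transcripts.

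The groups overlapped for the other kinases, and whether their differences differ from that of Pdk1 was not tested. Pdk3 had 26.7, 21.1 and 24.3 CPM in WT against 19.4, 22 and 21.1 CPM in cKO cells (-0.21 ± 0.11 SE; adjusted p = 0.780, edgeR). Its groups overlapped, because WT2 was as low as the cKO libraries. Pdk2 had 18.1, 11.6 and 17.8 CPM in WT against 18.3, 17.3 and 17.2 CPM in cKO cells (0.15 ± 0.17 SE; adjusted p = 0.925), with WT2 alone below the rest. Pdk4, the isozyme induced by fasting and fatty acids, had 0 estimated reads in the WT libraries and cKO1 and 0.9 and 1.2 in cKO2 and cKO3, under the limit of 3 reads that a count of 0 allows, and was not tested.

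As shares of the family's FPKM, Pdk1 took 51.9, 61.9 and 56.3% in WT and 62.6, 60.2 and 62.0% in cKO cells. The groups overlapped at WT2, and the means differed by 4.92 percentage points. Pdk3 took 30.1, 25.7 and 26.6% in WT and 20.4, 23.5 and 22.1% in cKO cells, a difference of -5.47 percentage points with no overlap. The ratio of Pdk1 to Pdk3 was 1.73, 2.41 and 2.12 in WT and 3.07, 2.56 and 2.81 in cKO cells, so the lowest cKO library lay just above the highest WT library. The Pdk1, Pdk3 and ratio values rest on the same reads and are not separate results.

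**Figure D4:**
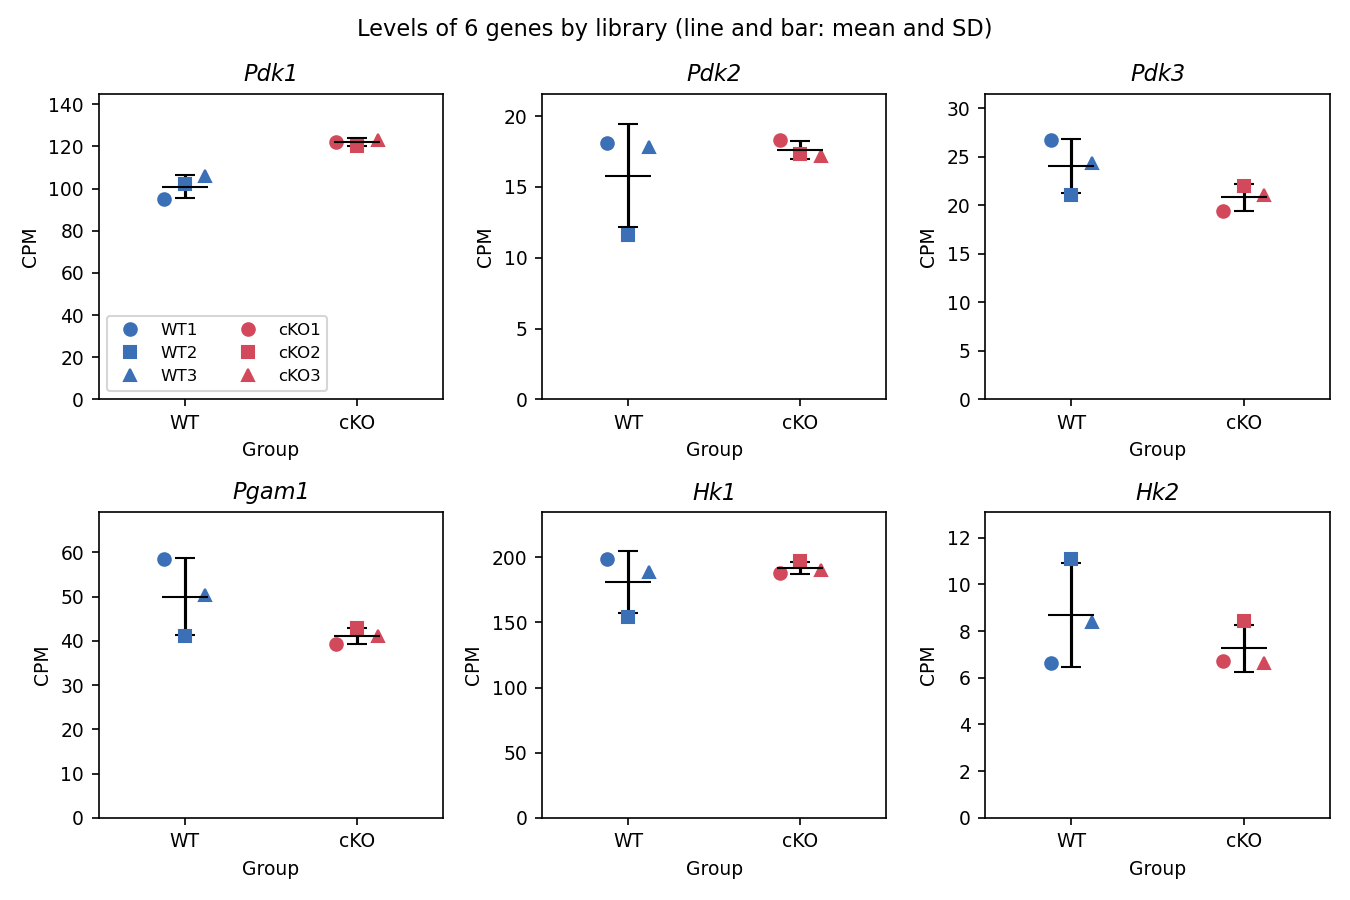
The level in CPM of Pdk1, Pdk2, Pdk3, Pgam1, Hk1 and Hk2 is plotted for each library from an axis that starts at 0, with the mean (line) and SD (bar) of each group of 3. Pdk1 separates the groups (95 to 106 against 120 to 123 CPM), while the groups overlap in the other genes, where WT2 (blue square) is the lowest WT library or, for Hk2, the highest.

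**Figure D5:**
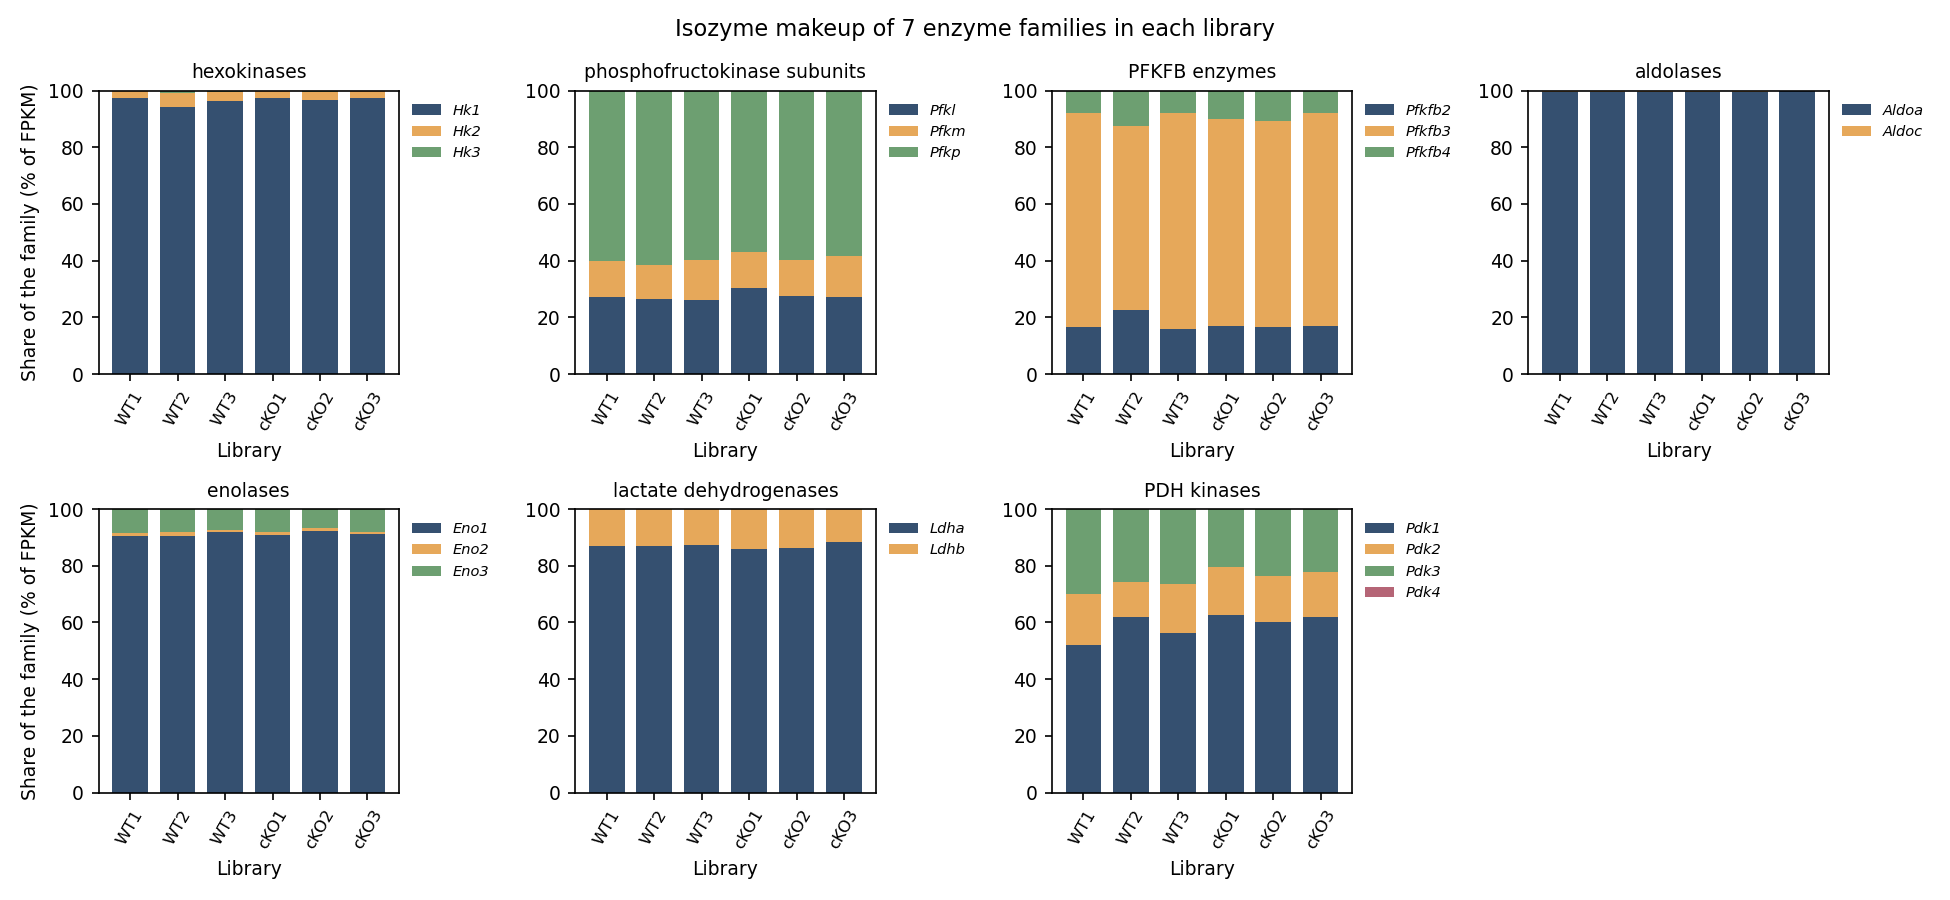
Stacked bars give the share of each isozyme in its family, as a percent of the family's FPKM, for each of the 6 libraries and 7 families. The leading isozyme is the same in every library, and the Pdk3 share is the one that is visibly smaller in all cKO libraries (20.4 to 23.5% against 25.7 to 30.1%).

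The enzymes at the edges of the pathway gave log2 fold changes of 0.01 to 0.21. Gpd2, the mitochondrial glycerol 3-phosphate dehydrogenase, had 16.9 ± 1.84 and 19.6 ± 1.67 CPM (SD, n = 3; adjusted p = 0.782, edgeR). Adpgk, an ADP-dependent glucokinase, was the most abundant of them per length, at 40.1, 39.7 and 41.4 FPKM in WT against 36.7, 42.8 and 44.7 FPKM in cKO cells, with the WT libraries inside the cKO range. Galk1 (galactokinase) had 8.89 ± 1.69 and 9.94 ± 0.832 CPM, and Pgp (phosphoglycolate phosphatase) 5.98 ± 0.825 and 6.82 ± 0.514 CPM. Bpgm, which makes 2,3-bisphosphoglycerate and is best known from red blood cells, had 16.6, 15.1 and 12 CPM in WT against 16.3, 15.5 and 12.5 CPM in cKO cells. The summed level of the 9 erythroid markers in the table was 198.8 CPM in cKO1, led by Hba-a1 (alpha globin) at 83.6 CPM, and 0.333 to 5.83 CPM in the other 5 libraries. Bpgm in cKO1 lay inside the WT range.

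Isozymes that the 32 genes leave out were low, and genes around the pathway were not called either. The 6 other glycolytic isozymes in the table summed to 7.98 to 11.1 CPM per library, and the smallest p was that of Pfkfb1 (log2 fold change -0.33, adjusted p = 0.902, edgeR). Of the 10 genes of the PDH complex, its phosphatases and the pyruvate carriers, 0 were called, and the largest difference by p was that of Pdpr, the regulatory subunit of the phosphatase (0.18 ± 0.09 SE; adjusted p = 0.702). The median over that list was 0.029.

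Of the 8 genes for transporters of glucose or lactate and their partner basigin (Bsg), 0 were called, and the glucose transporter Slc2a8 came closest (-0.21; adjusted p = 0.822, edgeR). Of 3 tested gluconeogenic genes, 0 were called, and G6pc3, a glucose 6-phosphatase, had a log2 fold change of -0.26 (adjusted p = 0.614). Of 10 genes of glycogen metabolism, 0 were called. Pygl, the liver phosphorylase, had 1.35 from levels of at most 1.04 CPM (adjusted p = 0.568). Among hexose entry and hexosamine enzymes, Galt had the lowest p (-0.19; adjusted p = 0.766), and among glycerol phosphate enzymes Gpd1l (0.08; adjusted p = 0.905). The oxidative pentose phosphate branch had 0 of 4 genes called (G6pdx -0.06; adjusted p = 0.941), and the 5 genes of the non-oxidative branch, Tkt included, had 0.

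Of the 16 tested regulators of glycolytic genes, 0 were called, and the median log2 fold change was 0.049, with 10 above 0 and 6 below. Without overlap, 2 were lower and 0 higher in cKO cells, beside 8.12% and 6.06% of all genes tested. Hif1a, the oxygen-regulated subunit of HIF-1, had the lowest p. It had 342, 436 and 339 CPM in WT against 323, 276 and 284 CPM in cKO cells. Every cKO library was below every WT library, with WT2 highest, and the log2 fold change of -0.34 ± 0.12 (SE) had an unadjusted p of 0.0257 and an adjusted p of 0.527 in edgeR's test. Egln3, a HIF-responsive prolyl hydroxylase, was likewise lower in every cKO library (-0.46 ± 0.19 SE; adjusted p = 0.614, edgeR). The related Egln1 (0.20 ± 0.14 SE; adjusted p = 0.841) and Egln2 (0.20 ± 0.10; adjusted p = 0.735) went the other way, with overlapping groups.

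Several libraries lay at the edge of the values. WT2 was the lowest of the 6 for 10 of the 31 tested genes and the highest for 4, cKO1 the lowest for 9 and the highest for 4, and WT1 the lowest for 3 and the highest for 10. Against the mean of WT1 and WT3, WT2 was lower on the log2 scale for Pdk2 (-0.63), Galk1 (-0.51), Aldoc (-0.49), Pfkfb3 (-0.44), Pgam1 (-0.41) and Hk1 (-0.33), and higher for Hk2 (0.56). For Pdk1 it differed by 0.02. Slc2a1, the main inducible glucose transporter, was highest in WT2 and cKO1 (89.0 and 67.3 CPM, against 46.1 to 55.4 CPM in the others). The summed level of 15 immediate early genes was 17992 CPM in WT2 and 14930 CPM in cKO1, against 9238 to 14111 CPM in the other 4 libraries, with Junb the highest. The list includes Tnfaip3, at 4898 CPM in WT2 and 4612 CPM in cKO1 against 1152 to 2332 CPM in the others. The sum is therefore not separate from the Tnfaip3 values given above. Members of the list differed, since Fos had 568 CPM in WT2 and 325 CPM in cKO1 against 737 to 1169 CPM in the others. Egr2 was lowest in WT2 (20.4 CPM). The part of these differences between libraries in the results was not tested, beyond the values without WT2 and cKO1.

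Markers of other cells and states were read in the same libraries, and 0 were called. Over all genes tested, every cKO library lay above every WT library in 6.06% and below in 8.12%. The B cell list had a median log2 fold change of 0.545 over 7 tested genes, and summed to 62.1 to 85.2 CPM in WT and 47.4 to 105.7 CPM in cKO libraries. Its highest gene was Cd74 (39.0 to 63.1 CPM in WT and 30.0 to 81.2 CPM in cKO libraries). Bank1 (0.92 ± 0.25 SE) and Cd79a (0.95 ± 0.46) were higher, and Cd22 (-0.67 ± 0.28) lower, in every cKO library. The myeloid list had a median of 0.343, with 7 of 8 tested genes above 0, and summed to 71.7 to 114.8 CPM in WT and 60.2 to 131.2 CPM in cKO libraries. Its highest gene, Cebpb, was the exception (means of 40.3 ± 7.47 and 30.7 ± 9.49 CPM, SD, n = 3), and Csf1r had the largest difference (2.19 ± 0.78 SE; adjusted p = 0.527, edgeR). Cd8b1 was the highest of the CD8 T and NK cell list (14.1 ± 1.24 and 16.5 ± 1.87 CPM). That list had a median of 0.266, with 4 of 6 tested genes above 0 and 2 below. Its member Nkg7 was lower in every cKO library (-0.66 ± 0.17 SE; adjusted p = 0.304, edgeR). Pecam1 was the highest of the stromal and endothelial list (195 ± 9.26 and 217 ± 16.0 CPM; list median 0.956 over 3 tested genes). The endothelial genes Cdh5 and Kdr had at most 0.382 and 0.436 CPM and were not tested. The median is the value of Col1a2, which had 1.55, 6.05 and 1.35 CPM in WT against 6.8, 3.82 and 6.67 CPM in cKO cells, with overlapping groups. All 12 proliferation markers had log2 fold changes below 0, with a median of -0.589 and 0 called. Mki67 had 113 ± 30.8 and 68.2 ± 28.7 CPM. The list summed to 325.9, 316.3 and 208.9 CPM in WT against 105.7, 232.9 and 222.9 CPM in cKO libraries. Only cKO1 lay below the WT range of this sum. Prc1 (-0.74 ± 0.19 SE) and Tyms (-0.37 ± 0.10) were lower in every cKO library (adjusted p = 0.304 for both, edgeR). They are 2 of the 12, beside 8.12% of all genes tested. Of the 15 immediate early genes, 10 had log2 fold changes below 0 and 5 above (median -0.177), with 0 called. Klf6 (-0.55 ± 0.13 SE; adjusted p = 0.233, edgeR), Fosb (-1.1 ± 0.31) and Jund (-0.20 ± 0.09) were lower in every cKO library. These are 3 of the 15, beside 8.12% of all genes tested, and 0 were higher in every cKO library. None of the 8 heat shock genes was above 0 (median -0.17). Hspa8, the highest, had 2459 ± 154 and 2456 ± 112 CPM, Hsph1 was lower in every cKO library (-0.27 ± 0.11 SE; adjusted p = 0.616, edgeR), and Hspa1a ran from 5.37 CPM in cKO1 and 12.7 CPM in WT2 to 163 CPM in WT1. The part of these markers in the values of the glycolysis genes was not tested.

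Near-identical copies limit several of the most abundant genes. Of the 32 genes, 11 share at least 300 transcript bases at 95% identity or more with another annotated gene, and 21 do not. Gapdh has 77 such copies, 74 of them processed pseudogenes, Pgk1 4, and Eno1 and Ldha 3 each. Gpi1, Tpi1, Pgam1, Pkm and Ldhb have 1 pseudogene copy each, and Pfkfb2 shares bases with a read-through transcript. The values of these genes depend on how the authors' counting placed shared reads, which no source used here describes. Hk1, Pfkl, Pfkfb3, Aldoa, Pdk1, Pdk2, Pdk3 and Adpgk are among those without a copy.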

How the data were processed

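Libraries of fragmented mRNA from sorted Treg cells were made with a NEBNext Ultra kit and sequenced on an Illumina instrument, per the labels. The authors deposited estimated counts per gene (not normalized; 45.4% to 46.3% of values per library not whole within 0.01) and a second set of values. These deposited values were read as FPKM, scaled to length and depth, as judged from the numbers themselves. Per the submitters' processing notes, the build was mm10 and the tools included featureCounts 1.5.0-p3, HISAT2 2.0.5 and DESeq2 1.16.1, without their roles. The origin of the fractional counts and the use of strand are not given in the sources used here.

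Groups and replicate numbers came from the sample titles. Estimated counts were rounded. In R 4.3.3, edgeR 4.0.16 kept genes by filterByExpr (minimum count 10; 12887 genes), scaled by TMM, and tested group as the only term with the quasi-likelihood F test, two-sided, with Benjamini-Hochberg adjustment over all genes tested (called at adjusted p under 0.05). Standard errors were derived from F. The depth was 17180577 to 18215168 estimated reads. The common biological coefficient of variation, the spread between libraries beyond counting error, was 16.7%. Isozyme shares used FPKM. A limit of 3 reads stands for a count of 0 and covers counting error only. Copies were found with blastn 2.17.0 against GENCODE M21 transcripts (GRCm38); coordinates, counted from 1, and promoters are RefSeq's for GRCm38.p6, the build of mm10. All 32 symbols matched RefSeq.

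Values per library are given for Tkt, for genes with an unadjusted p under 0.05 or without overlap, for the most abundant gene of each role and for the PDH kinases and PFKFB genes; of related lists the gene with the lowest p, and of marker lists the gene with the highest CPM. Hk2, Pgam1, Eno1b, Slc2a1, Egln1, Egln2, Egln3, Tnfaip3 and further markers were added after their values were seen. The genes and lists were chosen with earlier results of these data known. Alternatives were DESeq2 1.42.0, limma-voom (limma 3.58.1), other scalings and filters, robust empirical Bayes, a replicate block and each library left out. Added after seeing the data were the summed Eno1 pair and limma-trend on log2(FPKM + 0.1). The code was tested on simulated counts.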

Additional observations from a re-analysis of the deposited data

How the results depend on the processing

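None of the 31 tested genes was called under any of the 18 alternatives. The number of called genes over the whole table (27) became 179 with DESeq2, 43 with no filter on low counts, 48 with robust empirical Bayes, 71 without WT2 and cKO1 and 0 with limma-trend on log2(FPKM + 0.1) (929 at an unadjusted p under 0.05). Leaving out 1 library gave 0 to 30; only without WT2 was it above 0, and 681 to 909 genes had an unadjusted p under 0.05 in the others. Libraries of the same replicate number showed no clear pairing (correlations of -0.28, 0.06 and 0.26, against -0.38 to 0.31 for the other combinations). With 3 libraries per group, these values cannot settle whether the libraries were paired. With the replicate number as a block 0 genes were called (811 at an unadjusted p under 0.05). The direction was kept in every alternative by 20 genes, among them Pdk1 and Eno1, and turned at least once in 11 (26 times in all, 25 of them with libraries left out). Without WT2 and cKO1 it turned for Hk1 (-0.001), Hk2 (0.005), Gpi1 (-0.047), Pfkm (-0.004), Pfkfb3 (-0.050), Pdk2 (-0.053) and Bpgm (-0.030). With limma-trend on FPKM it turned for Eno2 (0.037). With 1 library left out, the range was -0.017 to 0.164 for Hk1, -0.079 to 0.066 for Gpi1, -0.058 to 0.082 for Pfkm, -0.109 to 0.023 for Pfkp, -0.075 to 0.147 for Pfkfb3, -0.162 to 0.030 for Tigar, -0.089 to 0.043 for Eno2, -0.026 to 0.262 for Pdk2, -0.059 to 0.075 for Adpgk and -0.104 to 0.125 for Bpgm. Adpgk reached 0.081 without WT2 and cKO1, and Hk2 -0.419 without WT1. Without WT2, the difference in the Pfkfb3 share turned from 1.22 to -2.43 percentage points. The Aldoa share differed by 0.17 percentage points in CPM and by 0.10 in FPKM. The cause was not tested.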
